A study of Homo sapiens with 14 samples.

Results

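MV4;11 is an established human acute myeloid leukaemia line with monocytic features, an MLL rearrangement and an activated FLT3 receptor. Of the 14 RNA-seq libraries of the series, 6 were examined here: 2 libraries of MV4;11 cells labelled sgEV, the control without a MYC guide, 2 labelled with the MYC guide sgcMyc_1 (guide 1) and 2 labelled with the MYC guide sgcMyc_5 (guide 5). All 3 groups, the control included, had received doxycycline at 1 µg/ml for 4 days. The labels named neither the promoter that drives the guides or Cas9 nor a clone, and nothing showed that replicate libraries were grown apart; the p-values below therefore cover only the spread between libraries, which may be technical. The 6 libraries were identified by their labels, and each guide was given the same weight in the comparison with sgEV.

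MYC is a transcription factor that binds DNA with its partner MAX, most often at the E-box, and is known for raising genes of ribosome assembly, nucleotide synthesis and cell growth. In myeloid leukaemia it holds cells in an immature, dividing state, and its loss is often followed by the appearance of granule and monocyte genes. ATF4, another transcription factor whose targets appear below, is made when amino acids are short or unfolded protein accumulates, and with C/EBP partners it turns on amino acid synthesis, amino acid import and tRNA charging.

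The deposited table held 15025 gene rows, of which 13948 passed the filter on low counts and were tested. Gene counts summed to between 13313056 and 15043425 per library, the genes of the mitochondrial genome took 2.41% to 2.47% of them in sgEV and 3.14% to 3.44% in the guide libraries, and the spike-in RNA made up 1.06% to 1.25% of all counts. Among replicates, the 2 guide 5 libraries differed most, with replicate 1 of guide 5 standing apart on the second principal component. The line's identity was visible in CD33, the myeloid antigen, at 91.1 and 95.2 CPM (counts scaled to the size of each library) in sgEV, in CD4 at 379 and 382 CPM, in the myeloid regulator SPI1 at 255 and 259 CPM and in the receptor FLT3 at 710 and 685 CPM. MPO, the myeloperoxidase of granulocyte precursors, was low at 7.50 and 5.99 CPM, and ITGAM, the integrin CD11b, was lower still in sgEV. Of the other planned identity markers, CD68 and LYZ are given below and ANPEP is not reported here. Of 58 markers of other cell types, 13 were tested: NCAM1 and KRT8 were called lower and KIT and GP1BB higher (KRT8 lost its call with DESeq2 and without sgEV replicate 1, KIT with DESeq2 and without sgEV replicate 2), the summed T and NK cell markers ran from 93.7 to 98.7 CPM in sgEV and from 76.3 to 82.1 CPM with the guides, and no fibroblast marker had a row.

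MYC itself was read at 658 and 660 CPM in sgEV, at 866 and 872 CPM with guide 1 and at 818 and 822 CPM with guide 5. The 4 guide libraries all lay above both sgEV libraries, and the log2 fold change was 0.36 ± 0.04 (SE, n = 2 libraries per group, adjusted p = 1.3e-05, edgeR). The labels name no target site of the guides, and these libraries measure no protein. The MYC level therefore checks neither the labels nor the loss of the protein, and why it was higher was not tested. The groups are named below by their labels.

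Across all genes, 5203 of 13948 (37.3%) were called at an adjusted p under 0.05, 2590 (18.6%) higher and 2613 (18.7%) lower in the guide libraries. The shares of 18.6% and 18.7% are the background for every list count below. Most of these changes were small: the median absolute log2 fold change of a called gene was 0.36, and 261 genes rose and 401 fell by at least 2-fold. All 4 guide libraries lay above both sgEV libraries for 26.6% of genes and below both for 26.7%. Taken alone, guide 1 gave calls for 32.2% of genes and guide 5 for 31.2%. When the libraries were scaled by the spike-in RNA instead of by gene counts (TMM), the median of all genes moved up by 0.113 on the log2 scale and 3136 genes were called higher against 1169 lower, a share of 72.8% higher where TMM gave 49.8%. Changes are therefore given relative to the bulk of genes, and in bulk RNA fewer cells of a type and less RNA per cell cannot be told apart.

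**Figure D1:**
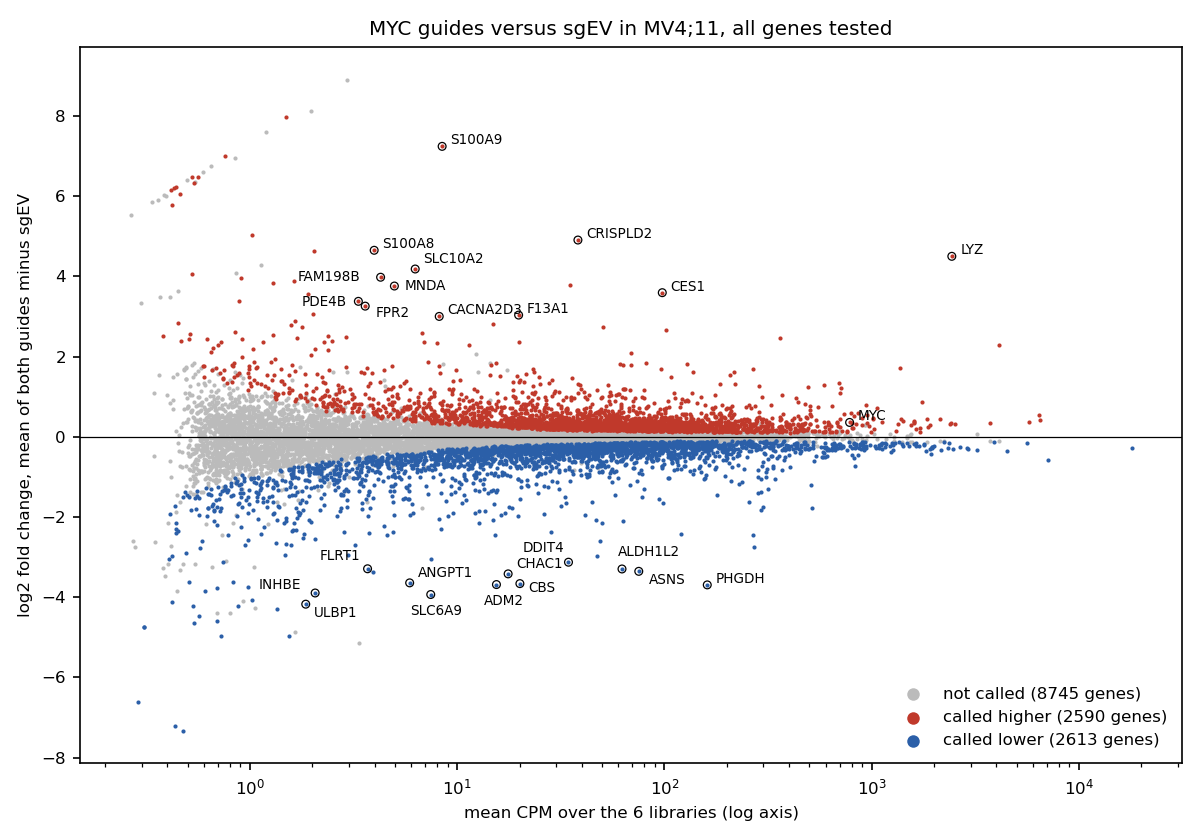
Log2 fold change (mean of both guides minus sgEV) against the mean CPM over the 6 libraries on a log axis, one point per gene tested; red points are the 2590 genes called higher, blue the 2613 called lower, and circles mark MYC and the 12 largest rises and falls with at least 50 normalised counts. PHGDH and ASNS are the most abundant of the labelled falls, and LYZ stands apart as a rise at high abundance; points beyond the labelled genes at the left edge rest on a few counts.

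Genes that make, import and sense amino acids were among the deepest falls. PHGDH, the first enzyme of serine synthesis, was at 415 and 421 CPM in sgEV, 28.4 and 31.0 with guide 1 and 33.5 and 36.9 with guide 5, a 12.9-fold fall (log2 -3.69 ± 0.05, adjusted p = 4.6e-14, edgeR). PSAT1, the next enzyme of that path, went from 623 and 621 CPM to 87.0, 90.9, 97.7 and 97.6 (-2.74 ± 0.04). ASNS, which makes asparagine, went from 190 and 188 CPM to 17.1, 18.2, 17.9 and 20.7 (-3.35 ± 0.06). In each of these genes the lowest sgEV library was several times the highest guide library. The glutathione-degrading enzyme CHAC1 read 44.4 and 44.7 CPM in sgEV and 3.79, 4.21, 3.76 and 4.90 with the guides. DDIT4, an inhibitor of mTORC1, fell from 85.3 and 82.9 CPM to between 9.09 and 10.1. ATF4, the regulator of this programme, was itself lower, at 565 and 558 CPM in sgEV, 154 and 160 with guide 1 and 151 and 165 with guide 5 (-1.83 ± 0.04, adjusted p = 8.8e-12, edgeR), and its relative ATF5 went from 567 and 566 CPM to 188, 185, 144 and 154.

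Over a list of genes that respond to amino acid shortage or to stress of the endoplasmic reticulum (ER), 31 of 38 members fell and 5 rose, with a median log2 fold change of -1.31 against -0.00289 over all genes. The 5 that rose, named after their values were seen, were HSPA5 (0.31), PDIA4 (0.36), HSP90B1 (0.37), SDF2L1 (0.54) and CALR (0.60), all chaperones or folding enzymes of the ER. XBP1, HERPUD1 and EDEM1, which also belong to the response to misfolded ER protein, fell by 0.76, 0.37 and 0.34. Among the transporters, also named after their values were seen, SLC7A5, the light chain of the large neutral amino acid carrier, fell from 976 and 977 CPM to between 264 and 315, and its heavy chain SLC3A2 from 308 and 315 CPM to between 110 and 119. Leaving out any 1 library kept between 30 and 32 members lower.

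Of the other genes among the 12 largest falls, SLC6A9, a glycine transporter, fell by 3.93 on the log2 scale, CBS, which turns homocysteine into cystathionine, was lower (-3.66 ± 0.09), and ALDH1L2, a mitochondrial folate enzyme of the stress list, fell by 3.30. ULBP1, a ligand of the NK cell receptor NKG2D, had 134 counts in the 2 sgEV libraries together and 10 with guide 1 and 6 with guide 5. Genes of secreted ligands fell as steeply: the peptide ADM2 (-3.68 ± 0.11), the activin subunit INHBE (-3.89 ± 0.27) and ANGPT1 (-3.64 ± 0.15), which binds the TIE2 receptor. FLRT1, a membrane adhesion protein, fell by 3.29 ± 0.19. CBS has a near-identical copy in the reference genome and ULBP1 has close relatives, so reads of these 2 genes may be split between copies.

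The enzymes that load amino acids onto tRNA fell with them. Of 20 cytosolic aminoacyl-tRNA synthetases, 15 fell and 1 rose, with a median of -0.80. GARS, for glycine, went from 470 and 459 CPM to 142, 147, 156 and 153 (-1.64 ± 0.04, adjusted p = 8.8e-12, edgeR). CARS, for cysteine, read 168 and 168 CPM in sgEV and between 57.1 and 57.3 in the 4 guide libraries (-1.56 ± 0.04). WARS, AARS, YARS and TARS fell by 1.38, 1.31, 1.17 and 0.99. RARS, for arginine, was the 1 that rose, by 0.16 ± 0.05, a call that was lost with DESeq2 and without sgEV replicate 1, sgEV replicate 2 or replicate 2 of guide 1. XPOT, which carries tRNA out of the nucleus, fell as well (-0.87 ± 0.04).

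Of 22 serine, glycine and one-carbon enzymes, 12 fell and 2 rose (54.5% and 9.09%, against 18.7% and 18.6% of all genes), with a median of -0.21. The mitochondrial enzymes MTHFD2, from 483 and 481 CPM to between 177 and 187 (-1.40 ± 0.04), and SHMT2, from 369 and 374 CPM to between 167 and 181 (-1.12 ± 0.04), were lower with both guides. Of those that rose, TYMS, which makes thymidylate for DNA and was named after its value was seen, changed by 0.33 ± 0.04.

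**Figure D2:**
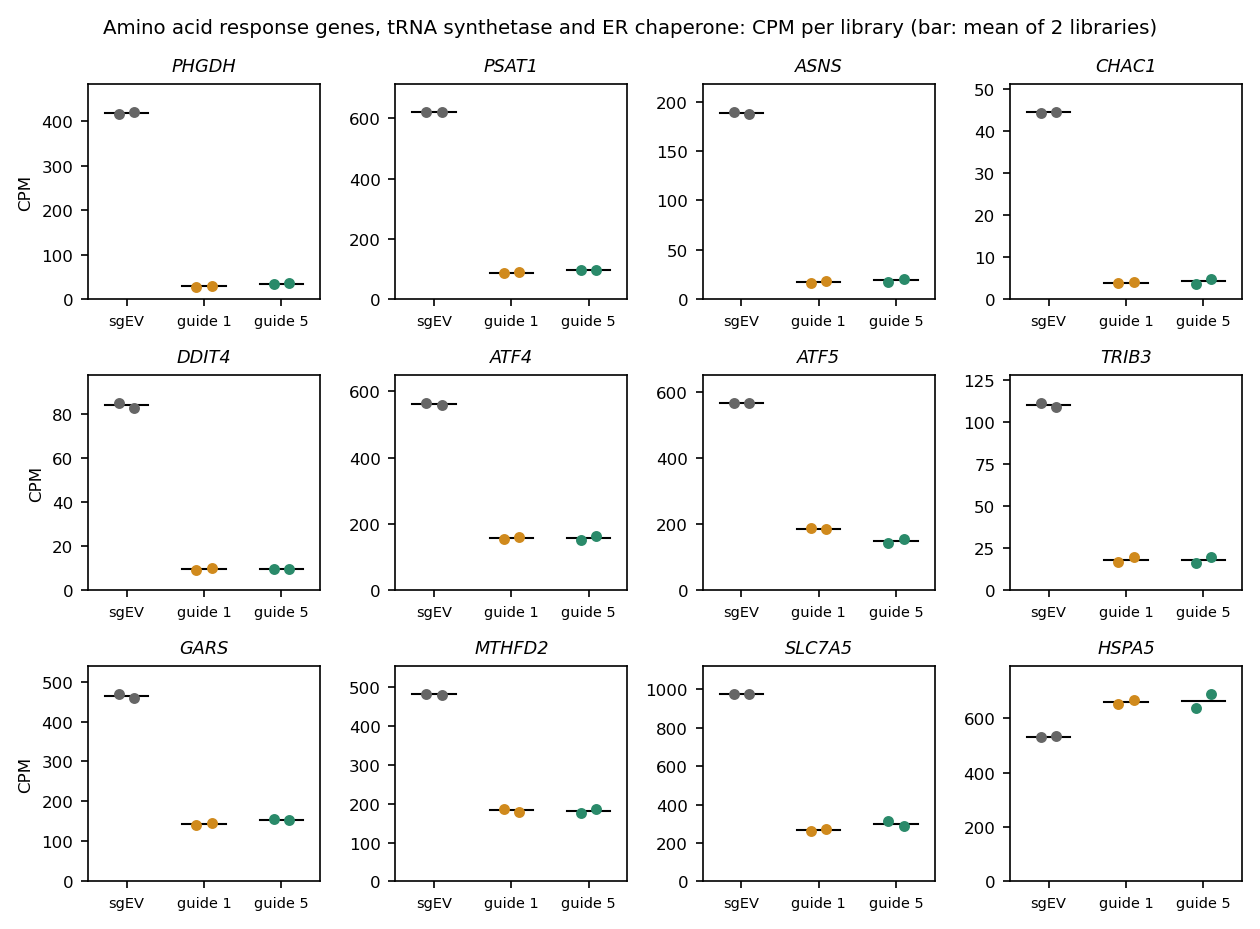
CPM in each library (points) and the mean of the 2 libraries (bar) for sgEV, guide 1 and guide 5, each panel with its own axis from 0. In the first 11 panels both guides lie below sgEV, by similar amounts except in ATF5, which is lower with guide 5 than with guide 1 (log2 difference -0.32). HSPA5, an ER chaperone, lies above sgEV.

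The promoters of these genes were searched for TGATGNAA, the core of the C/EBP-ATF element through which ATF4 acts, on both strands and in RefSeq windows from 250 bases before to 50 bases after the gene start (build GRCh38.p14). This motif was added after the falls were seen. It was present in 1.65% of the 9796 windows that matched a tested gene by symbol. Among the tRNA synthetases that fell, 6 of 9 with a window held it (66.7%), against 0 of the other 4. Among stress response genes that fell, 7 of 25 did, and 0 of the 7 that rose or were not called. Over all genes called lower the share was 2.52%, and over those called higher 1.59%. The 5 windows below, from the genes with the smallest p among those holding it, show the element in capitals in 5′ to 3′ direction of the gene. Matches begin 68 bases before the start in ASNS, 187 in AARS, 2 in CARS and 209 in CHAC1, and at base 38 after it in SLC3A2.
ASNS, chr7:97872359-97872658, minus strand: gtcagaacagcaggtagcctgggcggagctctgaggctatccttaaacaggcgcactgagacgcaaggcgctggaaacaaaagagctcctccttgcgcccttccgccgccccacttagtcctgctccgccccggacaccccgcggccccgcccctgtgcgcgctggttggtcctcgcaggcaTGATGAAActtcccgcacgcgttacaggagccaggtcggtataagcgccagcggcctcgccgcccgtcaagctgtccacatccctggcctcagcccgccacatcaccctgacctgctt
AARS, chr16:70289457-70289756, minus strand: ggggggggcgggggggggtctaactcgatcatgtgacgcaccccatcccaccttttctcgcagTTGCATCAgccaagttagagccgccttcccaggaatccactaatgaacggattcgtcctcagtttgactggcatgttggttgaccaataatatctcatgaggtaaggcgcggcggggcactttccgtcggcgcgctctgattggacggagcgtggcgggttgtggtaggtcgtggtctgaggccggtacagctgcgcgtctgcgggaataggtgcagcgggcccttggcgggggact
CARS, chr11:3057374-3057673, minus strand: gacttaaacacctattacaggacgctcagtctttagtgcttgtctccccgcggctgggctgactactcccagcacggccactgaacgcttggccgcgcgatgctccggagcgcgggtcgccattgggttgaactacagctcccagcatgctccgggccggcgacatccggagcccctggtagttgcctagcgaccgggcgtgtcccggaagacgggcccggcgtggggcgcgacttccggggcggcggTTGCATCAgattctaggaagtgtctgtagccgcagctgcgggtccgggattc
CHAC1, chr15:40953221-40953520, plus strand: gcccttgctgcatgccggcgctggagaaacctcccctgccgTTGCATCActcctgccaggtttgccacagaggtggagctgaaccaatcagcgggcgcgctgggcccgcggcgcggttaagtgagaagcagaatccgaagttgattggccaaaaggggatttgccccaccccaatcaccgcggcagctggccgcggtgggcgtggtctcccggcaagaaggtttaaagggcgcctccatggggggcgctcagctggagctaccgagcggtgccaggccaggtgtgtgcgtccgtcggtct
SLC3A2, chr11:62881449-62881748, plus strand: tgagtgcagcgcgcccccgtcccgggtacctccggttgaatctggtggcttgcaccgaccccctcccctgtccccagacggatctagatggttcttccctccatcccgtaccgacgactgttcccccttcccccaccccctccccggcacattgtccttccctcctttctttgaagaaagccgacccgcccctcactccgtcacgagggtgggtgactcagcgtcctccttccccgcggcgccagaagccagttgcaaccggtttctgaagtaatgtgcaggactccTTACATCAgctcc
A match is a description of these letters and not a measured binding site. No match was found for PHGDH, PSAT1, DDIT4 and ATF4, which fell as deeply, whether for lack of the motif or of a window. Only 25 of the 31 stress response genes that fell had a window.

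Cholesterol synthesis fell as a block. Of 26 genes, 24 fell and 1 rose, with a median of -0.51. HMGCS1, which makes the HMG-CoA that feeds the pathway, went from 241 and 232 CPM to 123, 121, 114 and 108 (-1.02 ± 0.04, adjusted p = 1.8e-09, edgeR). DHCR7, the last step to cholesterol, fell from 202 and 203 CPM to between 101 and 114 (-0.93 ± 0.04), and MSMO1, CYP51A1 and LSS by 0.84, 0.65 and 0.64. PMVK, named as the 1 that rose, changed by 0.30 ± 0.08, a call that was lost with DESeq2 and without sgEV replicate 1 or replicate 2. Between 20 and 24 of the 26 fell under every alternative tried. The letters TCACNCCAC, a form of the sterol regulatory element, were found in 1 of the 18 windows of members that fell.

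Genes known to be raised by MYC did not move one way under TMM scaling. Of 65 tested, 13 rose and 15 fell, shares close to the 18.6% and 18.7% of all genes, with a median of -0.04. Under spike-in scaling, where calls over all genes also leaned higher, 17 rose and 5 fell and the median was 0.08. CCND2, a cyclin of the G1 phase, read 51.1 and 54.7 CPM in sgEV, 29.2 and 27.9 with guide 1 and 29.2 and 25.1 with guide 5 (-0.93 ± 0.07, adjusted p = 5.5e-07, edgeR). TCOF1, a nucleolar factor of rRNA transcription, fell by 0.62, SORD, a polyol dehydrogenase, by 0.49 and TMEM97, a sterol-linked membrane protein, by 0.44. MCM4, part of the replicative helicase (0.32 ± 0.04), and ODC1, the entry enzyme of polyamine synthesis (0.33 ± 0.05), rose. The counts were 7 and 7 without sgEV replicate 1 and again without sgEV replicate 2, and 8 rose without replicate 2 of guide 1.

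The E-box CACGTG was found in 46.4% of the 56 windows of the MYC-raised genes, against 10.4% of all windows of tested genes. It was in 6 of the 11 windows of members that fell (54.5%) and in 20 of the 45 of members that rose or were not called (44.4%). None of the 6 members with the smallest p and a window (TMEM97, ODC1, MAP3K6, WDR74, GRWD1 and NPM1) held it. Among called members CDK4, a G1 kinase that fell by 0.20 ± 0.05, held 3, and LDHA, lactate dehydrogenase, which fell by 0.12 ± 0.04, and EXOSC5, an exosome subunit, which fell by 0.19, held 2 each; the windows of CDK4 and LDHA are shown as examples with more than 1 match, with E-boxes in capitals.
CDK4, chr12:57752261-57752560, minus strand: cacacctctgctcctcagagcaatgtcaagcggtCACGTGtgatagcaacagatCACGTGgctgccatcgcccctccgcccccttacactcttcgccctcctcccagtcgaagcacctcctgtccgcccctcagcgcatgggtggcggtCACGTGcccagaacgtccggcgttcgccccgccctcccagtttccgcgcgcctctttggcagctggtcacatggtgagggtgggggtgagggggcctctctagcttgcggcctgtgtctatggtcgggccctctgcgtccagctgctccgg
LDHA, chr11:18394313-18394612, plus strand: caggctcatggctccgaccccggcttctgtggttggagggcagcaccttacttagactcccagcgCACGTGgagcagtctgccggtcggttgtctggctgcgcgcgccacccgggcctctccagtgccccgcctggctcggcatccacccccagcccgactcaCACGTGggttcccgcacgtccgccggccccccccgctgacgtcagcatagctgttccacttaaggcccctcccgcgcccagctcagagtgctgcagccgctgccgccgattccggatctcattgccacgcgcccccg
Genes that fell and genes that did not both carried E-boxes near their starts.

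In the MYC-MAX network, 5 of 23 members rose and 7 fell (21.7% and 30.4%, against 18.6% and 18.7% of all genes). Under spike-in scaling 3 members fell. The kinases PIM2 (-0.67 ± 0.05) and PIM1 (-0.38 ± 0.04) fell, as did the MYC antagonists MXI1, MXD1 and MNT, by 0.34, 0.43 and 0.34. The falls of MXI1 and MNT lost their calls under spike-in scaling (adjusted p = 0.072 and 0.075, edgeR). The network held 3 rises without sgEV replicate 1 and 11 falls without replicate 2 of guide 5. Among genes known to be held down by MYC, 6 of 24 rose and 12 fell (median -0.17), where 18.6% and 18.7% of all genes did. The lean was not equal between guides. Against sgEV, guide 1 alone had 6 higher and 8 lower (median -0.04), and guide 5 alone 5 higher and 14 lower (median -0.24). KLF4, a factor of monocyte maturation, rose from 5.55 and 4.65 CPM to between 11.6 and 11.8, and the related KLF6 and KLF2 fell by 1.10 and 1.52, with DDIT3, an ATF4 target, at -1.56 ± 0.15. The cyclin kinase inhibitor CDKN1A, the best-known gene of that list, was at 204 and 216 CPM in sgEV and between 190 and 207 with the guides (-0.09 ± 0.04, adjusted p = 0.096, edgeR). In that list 3 rose without sgEV replicate 1 and 7 fell without sgEV replicate 2.

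**Figure D3:**
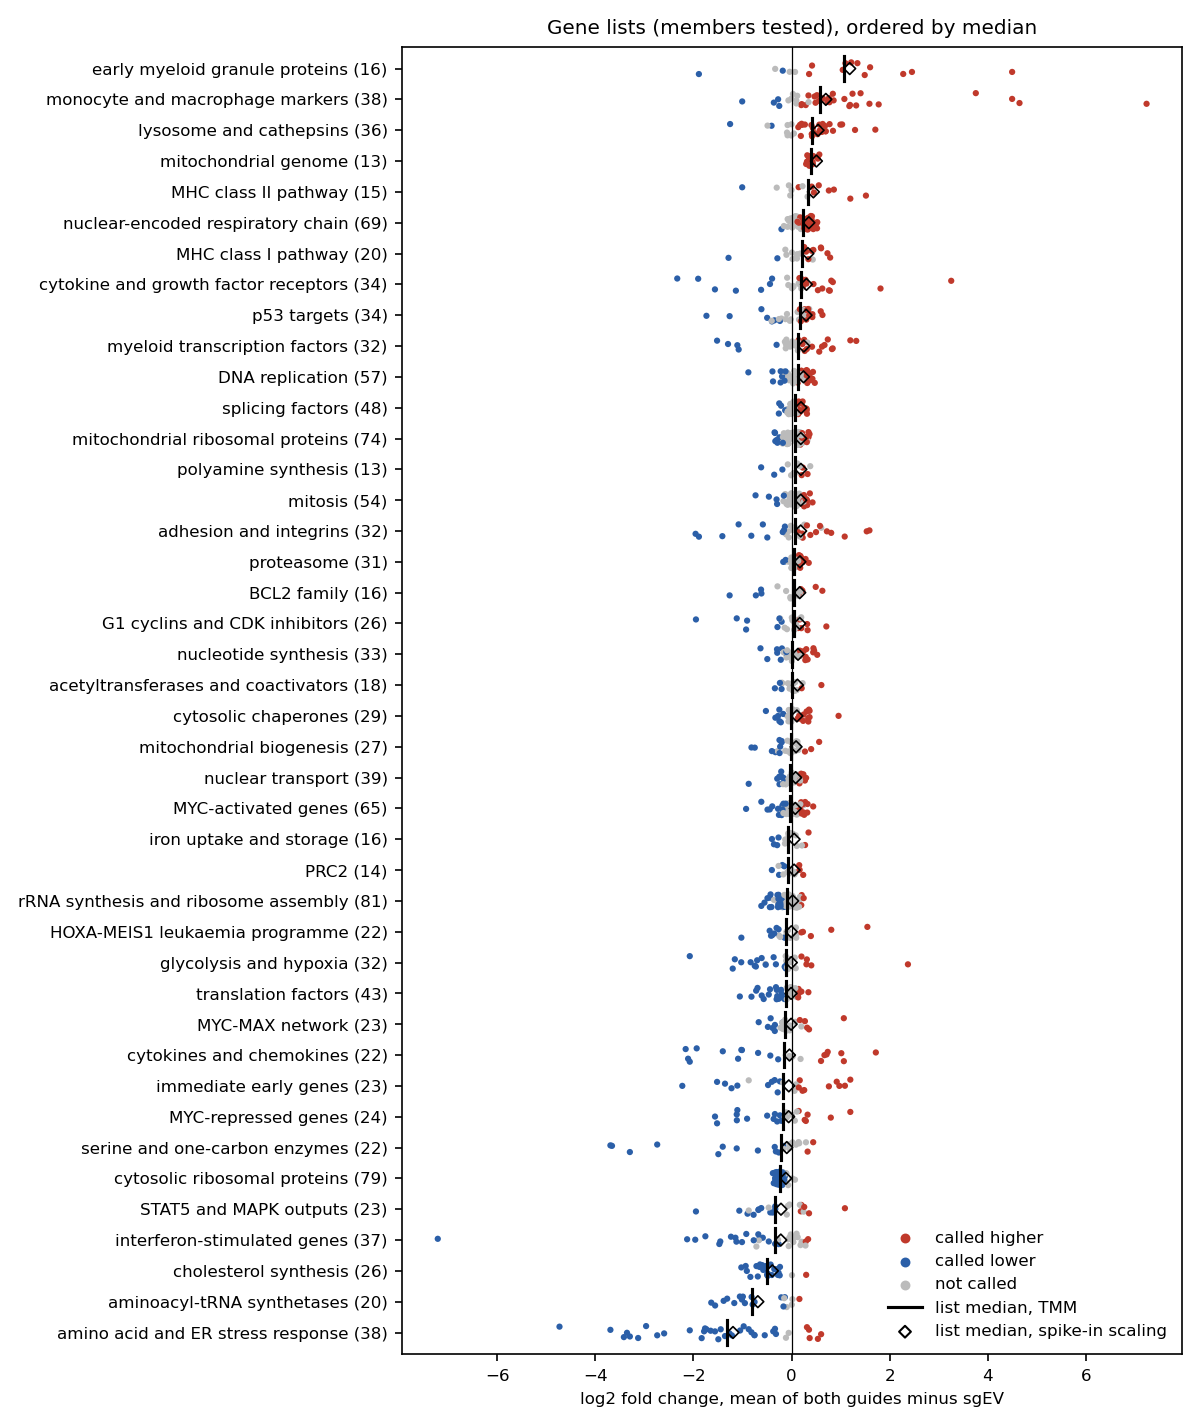
Log2 fold change of every tested member (points) of each list with at least 10 tested members, ordered by the list median under TMM scaling (bar); diamonds give the median under spike-in scaling, which moves every list up by about the same step. Amino acid response, tRNA synthetase and cholesterol genes sit lowest and granule, monocyte and lysosome genes highest; the far left point among interferon-stimulated genes is IFI44L, at 0 counts in the guide libraries, where a fitted value is no bound.

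Ribosomal protein genes were slightly and evenly lower. Of 79 genes of the cytosolic ribosome, 70 fell and 0 rose, with a median of -0.23. RPL12 went from 1454 and 1484 CPM to 1125.6, 1159.7, 1037 and 1192 (-0.38 ± 0.05, adjusted p = 1.0e-04, edgeR), and RPL36, RPL3, RPL5 and RPL29 fell by 0.33, 0.33, 0.33 and 0.30. The number that fell moved with the settings. It was 34 under spike-in scaling (median -0.12), where 1 rose, 32 without sgEV replicate 1, 24 without sgEV replicate 2 and 45 without replicate 1 of guide 1. Many ribosomal protein genes have processed copies that can take their reads.

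Translation factors fell in part. Of 43, 21 fell and 6 rose. EIF4EBP1, the inhibitor of cap-dependent initiation and an ATF4 target, fell from 238 and 236 CPM to between 108 and 122 (-1.05 ± 0.04). The initiation factors EIF1 (-0.82), EIF2S3 (-0.72) and EIF2S2 (-0.69), the last 2 of them subunits of eIF2, fell too, as did EIF4B (-0.46). EEF2, the elongation factor that moves the ribosome along, went from 9020 and 9009 CPM to 6142, 6192, 6111 and 5888. The rises numbered 1, 1 and 2 without sgEV replicate 1, sgEV replicate 2 and replicate 2 of guide 1. Genes of rRNA synthesis and ribosome assembly fell in 27 of 81 and rose in 3 (33.3% and 3.7%, against 18.7% and 18.6% of all genes). Their median of -0.09 turned to 0.02 under spike-in scaling, where 8 fell. The largest falls by p were in NOB1 (-0.55), TCOF1, POLR1D (-0.44), WDR12 (-0.44), NMD3 (-0.43) and TAF1D (-0.41). Leaving out sgEV replicate 1 or replicate 2 left 13 or 14 of this list lower.

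The mitochondrial genome and the respiratory chain moved the other way. All 13 protein-coding genes of the mitochondrial genome were called higher (median 0.39), 12 of them also under spike-in scaling. MT-CO1, a subunit of cytochrome oxidase, went from 4997 and 4908 CPM to 7132, 7030, 7529 and 7067 (0.54 ± 0.05), and MT-ND3 rose by 0.57 ± 0.05. Nuclear-encoded subunits of the respiratory chain rose in 41 of 69 and fell in 1, with a median of 0.24. NDUFS5, NDUFA4 and NDUFA6 of complex I rose by 0.45, 0.48 and 0.52, UQCR10 and UQCRQ of complex III by 0.41 and 0.48, and ATP5J of the ATP synthase by 0.38. The exception, NDUFS1 of complex I, was picked out after its value was seen. With sgEV replicate 1 or replicate 2 left out, 22 or 24 of the 69 rose.

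Proteins of the mitochondrial ribosome showed no common direction, with 12 of 74 higher and 9 lower (16.2% and 12.2%, against 18.6% and 18.7% of all genes). These counts were 27 and 0 under spike-in scaling. Without replicate 1 of guide 5, 28 rose; without sgEV replicate 1 and replicate 2, 4 and 2 rose; and without replicate 2 of guide 5, 18 fell. Of 27 genes of mitochondrial biogenesis and import, 3 rose and 9 fell (11.1% and 33.3%, against 18.6% and 18.7% of all genes). Under spike-in scaling 6 rose and 3 fell, and the median turned from -0.02 to 0.09. The falls under TMM were led by the protease LONP1, from 396 and 397 CPM to between 216 and 241 (-0.82 ± 0.04), the import motor TIMM44 (-0.75) and the outer membrane receptor TOMM20 (-0.40). The falls numbered 4 without sgEV replicate 2.

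**Figure D4:**
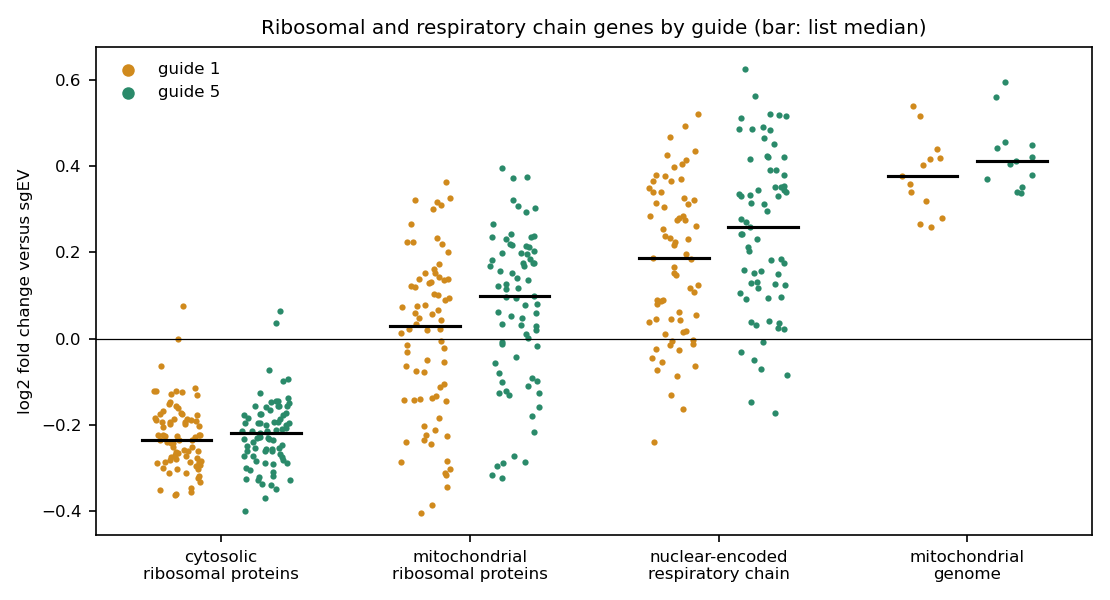
Log2 fold change versus sgEV of each gene (points) by guide, with the list median (bar), for cytosolic ribosomal proteins, mitochondrial ribosomal proteins, the nuclear-encoded respiratory chain and the mitochondrial genome. Cytosolic ribosomal proteins lie below 0 and both respiratory chain lists mostly above it with each guide; the 2 guides share the sgEV libraries.

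Several of the largest rises were in genes of granules and monocytes. LYZ, lysozyme, was at 159 and 158 CPM in sgEV, 3707 and 3726 with guide 1 and 3383 and 3486 with guide 5, a 22.6-fold rise (4.50 ± 0.05, adjusted p = 3.8e-14, edgeR). S100A9, a subunit of calprotectin, the antimicrobial dimer of phagocytes, had 1 count in each sgEV library and 191, 195, 172 and 170 counts in the guide libraries, a ratio of 169 with a counting interval (95%) of 46.5 to 1400. Its partner S100A8 had 3 counts in each sgEV library and between 72 and 95 with the guides, a ratio of 25.9 (11.8 to 71.2). Both calprotectin genes were thus near the floor in sgEV and stayed far below LYZ in the guide libraries.

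Of 16 early granule genes, 11 rose and 2 fell (median 1.07). MS4A3, a marker of granulocyte and monocyte precursors, rose from 90.1 and 89.8 CPM to 539, 541, 441 and 460 (2.46 ± 0.04). SRGN, the proteoglycan that packs granules, rose from 1155 and 1156 CPM to 5834, 5941, 5003 and 5653, and the granule proteins RNASE2 and PRTN3 by 1.6 and 1.22. CST7, a cystatin, fell from 33.4 and 32.7 CPM to between 8.15 and 9.65 (-1.89 ± 0.08). MPO was not called (-0.33 ± 0.17, adjusted p = 0.14, edgeR), with overlapping groups. Granule genes of the precursor stage thus did not all move together.

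Of 38 monocyte and macrophage markers, 27 rose and 4 fell (median 0.58). The scavenger receptor CD36 rose from 23.8 and 24.4 CPM to between 74.4 and 90.9 (1.78 ± 0.07), CD68, a macrophage lysosomal protein, from 97.5 and 87.7 CPM to 242, 246, 207 and 229 (1.32 ± 0.06) and the coagulant protein FGL2 by 1.24 ± 0.04. ITGAM, the integrin CD11b and a marker of the line's identity, went from 3.0 and 3.97 CPM to 12.1, 12.8, 9.51 and 8.21. CD33 did not pass the test (0.10 ± 0.05, adjusted p = 0.12, edgeR). Other genes among the 12 largest rises were CRISPLD2, a secreted protein of 2.17 and 1.57 CPM in sgEV and 48.5 to 61.4 CPM with the guides, CES1, a carboxylesterase of monocytes (3.59 ± 0.07), MNDA, the myeloid nuclear differentiation antigen (3.76 ± 0.24), FPR2, a receptor for formylated peptides (3.26 ± 0.28), F13A1, a clotting factor subunit of monocytes (3.03 ± 0.13), PDE4B, a cyclic AMP phosphodiesterase (3.38 ± 0.29), SLC10A2, a bile acid transporter (4.18 ± 0.26), FAM198B (3.98 ± 0.28) and CACNA2D3, a calcium channel subunit (3.0 ± 0.20).

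Lysosomal genes rose more evenly, in 27 of 36, with 2 lower and a median of 0.43. CST3, cystatin C, went from 551 and 543 CPM to 1816, 1880, 1635 and 1820.5 (1.71 ± 0.05), and GRN, progranulin, from 291 and 306 CPM to 757, 784, 679 and 716 (1.29 ± 0.05). The enzymes and membrane proteins CTSA, PSAP and LAMP1 rose by 1.00, 1.03 and 0.78.

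**Figure D5:**
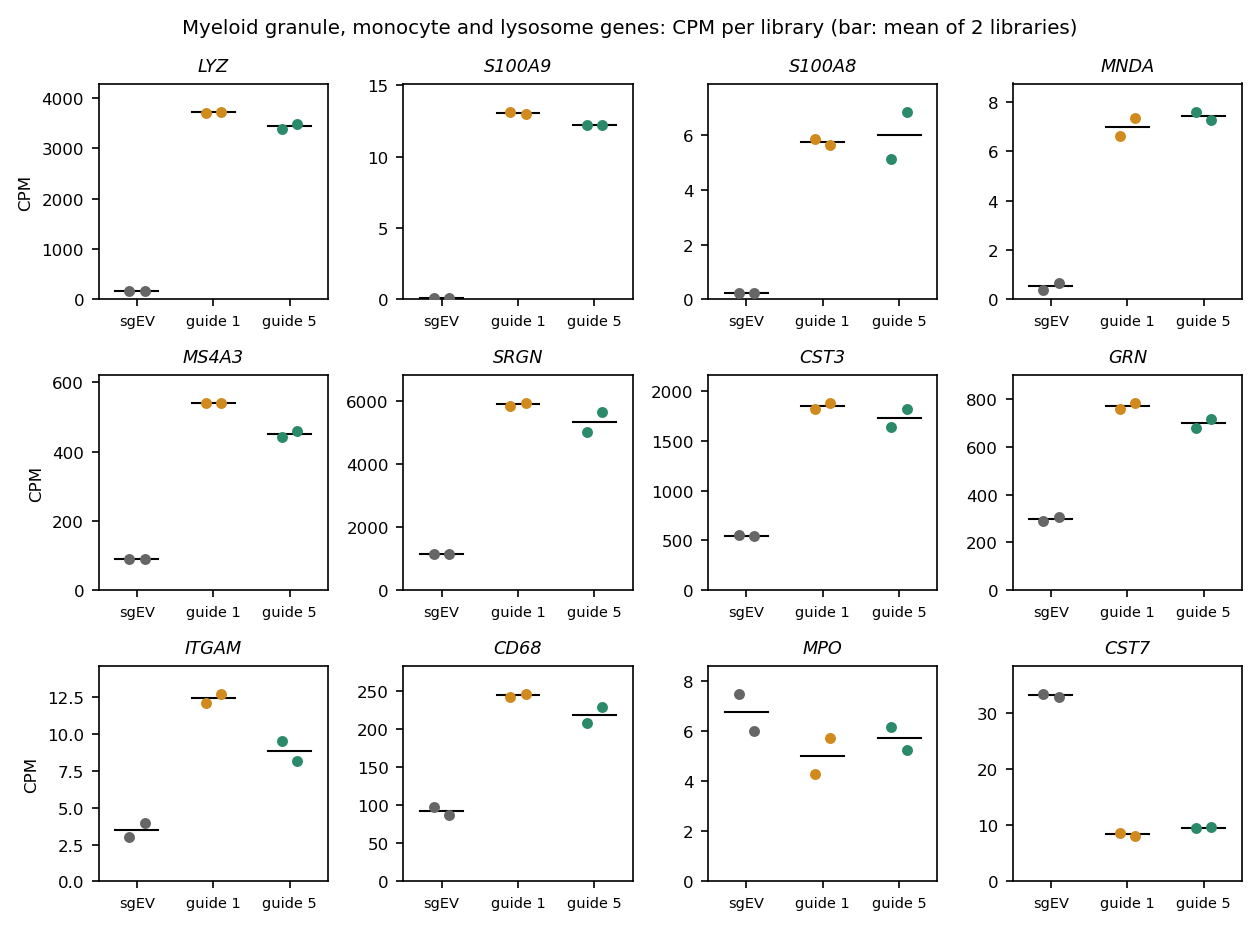
CPM in each library (points) and the mean of the 2 libraries (bar) for sgEV, guide 1 and guide 5, each panel with its own axis from 0. From LYZ to CD68 all guide libraries lie above both sgEV libraries; MPO overlaps between groups and CST7 is lower with both guides.

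Among myeloid transcription factors, 15 of 32 rose and 5 fell (46.9% and 15.6%, against 18.6% and 18.7% of all genes). IRF8, a regulator of monocyte fate, rose from 360 and 361 CPM to 583, 584, 572 and 560 (0.67 ± 0.04), CEBPD by 0.84 ± 0.06, IRF5 by 0.62 ± 0.06 and KLF4 by 1.20 ± 0.12. GATA2, a factor of stem and precursor cells, fell from 22.3 and 22.3 CPM to between 8.28 and 10.4 (-1.29 ± 0.10). The rises numbered 9 without sgEV replicate 1 and 9 without replicate 2, and 3 fell without sgEV replicate 2; without replicate 1 or replicate 2 of guide 5, 8 fell. In the list of the HOXA and MEIS1 programme of MLL leukaemia, 5 of 22 rose and 8 fell. These were 22.7% and 36.4%, against 18.6% and 18.7% of all genes, and under spike-in scaling 5 rose and 2 fell. The defining genes of the programme were not called: HOXA9 was at -0.13 ± 0.06 (adjusted p = 0.089, edgeR) and MEIS1 at 0.11 ± 0.06 (adjusted p = 0.18, edgeR). FLT3 fell by 0.40 ± 0.04 and MEF2C by 0.26 ± 0.04, a call lost under spike-in scaling, and LAMP5 rose by 0.39 ± 0.04. Of that list 2 rose without sgEV replicate 1, and 4 fell without sgEV replicate 1, without sgEV replicate 2 or without replicate 2 of guide 1.

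Antigen presentation and interferon genes moved in opposite directions. In the MHC class I path, 9 of 20 rose and 2 fell (45.0% and 10.0%, against 18.6% and 18.7% of all genes), with a median of 0.22. HLA-B went from 637 and 630 CPM to 1146, 1188, 967 and 1085. HLA-C (0.73 ± 0.04) and B2M, the shared light chain (0.60 ± 0.05), rose as well, with the trimming enzyme ERAP2 lower (-1.28 ± 0.10). In class II, 8 of 15 rose and 1 fell (53.3% and 6.67%), with a median of 0.33. The rises were led by HLA-DRA, from 6.82 and 7.12 CPM to 25 and 26.2 with guide 1 and 13.7 and 17.4 with guide 5, and the invariant chain CD74 (0.46 ± 0.04). HLA genes are near-identical to each other and vary between genomes, so their counts are uncertain. Of 37 interferon-stimulated genes, 18 fell and 2 rose (48.6% and 5.41%), with a median of -0.33. XAF1 went from 87.4 and 88.3 CPM to between 39.3 and 41.1 (-1.12 ± 0.05), and OAS2, a sensor of double-stranded RNA, IFIT2 and EIF2AK2, the kinase PKR, fell by 1.45, 1.96 and 0.77. IFI44L, picked out after its values were seen, had 35 counts in the 2 sgEV libraries and 0 in the 4 guide libraries, at least 25.2-fold lower against a floor of 3 counts over the 4 libraries.

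Secreted signals and their receptors changed in both directions. Of 22 cytokines and chemokines, 7 rose and 11 fell. The chemokine CCL5 fell from 129 and 129 CPM to 30.3, 34.6, 27.0 and 28.4 (-2.11 ± 0.06, adjusted p = 3.4e-11, edgeR), VEGFA, which drives vessel growth and is also an ATF4 target, from 98.2 and 91.7 CPM to between 20.4 and 23.8, and TNF by 1.40 ± 0.08. TNFSF13 and TNFSF13B, the B cell factors APRIL and BAFF, rose by 0.74 and 0.71, and IL16 by 0.67. Of 34 receptors, 17 rose and 7 fell, and 11 rose without sgEV replicate 2. CXCR4, the receptor that holds cells in the marrow, rose from 47.8 and 47.7 CPM to 175, 178, 158 and 161 (1.81 ± 0.05), and the monocyte receptors CCR2, CCR1, IL6R and CSF3R by 0.84, 0.76, 0.78 and 0.63.

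Adhesion genes were mixed, with 12 of 32 higher and 11 lower (37.5% and 34.4%, against 18.6% and 18.7% of all genes). ITGB7 (1.08 ± 0.05) and PECAM1 (0.72 ± 0.04) rose, and ITGB1 (-0.58 ± 0.04), ITGB5 (-1.41 ± 0.10) and ICAM1 (-1.08 ± 0.09) fell. Among them 6 fell without sgEV replicate 1 or replicate 2, and 7 without replicate 1 of guide 1. Outputs of STAT5 and MAPK signalling fell in 11 of 23 and rose in 5 (47.8% and 21.7%, against 18.7% and 18.6% of all genes). Their median was -0.33, with ETV5 at -0.90 ± 0.05 and DUSP1, a MAPK phosphatase, at 1.09 ± 0.14. Of these outputs 7 fell and 3 rose without sgEV replicate 1, and 3 rose without either library of guide 1. Immediate early genes fell in 10 of 23 and rose in 9 (43.5% and 39.1%, against 18.7% and 18.6% of all genes). FOS (0.76 ± 0.04) and JUN (0.98 ± 0.10) rose, and EGR3 (-2.23 ± 0.18) and JUND (-0.48 ± 0.04) fell.

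Genes of the cell cycle changed by small amounts. Of 57 replication genes, 21 rose and 8 fell (median 0.13), and 27 rose and 2 fell under spike-in scaling. PCNA, the sliding clamp, went from 237 and 239 CPM to 321, 313, 305 and 348 (0.44 ± 0.05), and FEN1 and RPA1 rose by 0.47 and 0.37. CDT1, which licenses origins, was the exception in size, from 215 and 217 CPM to 113, 120, 119 and 118 (-0.88 ± 0.04, adjusted p = 5.4e-09, edgeR). Of 54 mitotic genes, 12 rose and 5 fell (22.2% and 9.26%, against 18.6% and 18.7% of all genes), with ZWINT at 0.43 ± 0.05 and CENPE at -0.46 ± 0.07. Under spike-in scaling 18 mitotic genes rose and 2 fell. The rises among replication genes numbered 12 and 10 without sgEV replicate 1 and replicate 2, and their falls 5 and 3; without replicate 1 or replicate 2 of guide 1, 4 and 5 fell. Among mitotic genes, 21 rose without replicate 2 of guide 5 and 3 fell without sgEV replicate 1.

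The G1 list held 6 rises and 7 falls among 26 (23.1% and 26.9%, against 18.6% and 18.7% of all genes). Under spike-in scaling it held 7 rises and 4 falls. Both D cyclins named fell, CCND2 as above and CCND1 from 10.1 and 9.52 CPM to between 2.07 and 3.12 (-1.95 ± 0.16), and CCNE2, an E cyclin, rose by 0.71 ± 0.09. The inhibitors CDKN2B and CDKN1C fell by 0.91 and 1.12, from levels under 10 CPM, and CDKN1B was at 0.01 ± 0.04 (adjusted p = 0.93, edgeR). The rises were 2, 3 and 3 without sgEV replicate 1, sgEV replicate 2 and replicate 1 of guide 1, and 4 fell without sgEV replicate 2. Of 34 p53 targets, 14 rose and 7 fell (41.2% and 20.6%, against 18.6% and 18.7% of all genes), with a median of 0.18. The falls with the smallest p were in SESN2 (-1.73 ± 0.06), a stress-induced inhibitor of mTORC1 that ATF4 also controls, PMAIP1 (-1.26 ± 0.08), a killer of the BCL2 family, CCNG1, cyclin G1 (-0.35 ± 0.04), and BBC3 (-0.61 ± 0.07), another such killer, and C12orf5, the fructose phosphatase TIGAR, rose by 0.60 ± 0.08. Within the BCL2 family, 5 of 16 rose and 4 fell, where 18.6% and 18.7% of all genes did. The family is small, and whether these counts exceed that background was not tested. BCL2L11, the killer BIM, rose by 0.63 ± 0.08, and BMF fell by 0.62 ± 0.05. Dropping sgEV replicate 1 or replicate 2 left 2 or 1 rises in the family.

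Sugar metabolism and oxygen response genes fell in 15 of 32 and rose in 5 (46.9% and 15.6%, against 18.7% and 18.6% of all genes). Their median was -0.12. SLC2A3, a glucose transporter, went from 106 and 112 CPM to 52.8, 52.6, 42.8 and 42.8 (-1.20 ± 0.05), and PFKP, a phosphofructokinase, fell by 0.70 ± 0.05. HK3, the hexokinase of myeloid cells, rose from 5.17 and 5.25 CPM to between 24.1 and 31.2 (2.37 ± 0.11). Among nucleotide synthesis genes, TK1 (0.46 ± 0.06) and RRM1 (0.28 ± 0.04) were higher and the purine enzymes PPAT (-0.49 ± 0.05) and PAICS (-0.30 ± 0.04) lower. The 33 genes of this list held 11 rises and 8 falls (33.3% and 24.2%, against 18.6% and 18.7% of all genes), and 14 and 2 under spike-in scaling. Spike-in scaling ended the call of PAICS (adjusted p = 0.063, edgeR). Among cytosolic chaperones, 12 of 29 rose and 7 fell (41.4% and 24.1%, against 18.6% and 18.7% of all genes). Under spike-in scaling 14 rose and 2 fell. HSPA1A, from 66.1 and 71.9 CPM to between 130 and 138 (0.96 ± 0.05), HSPA8 (0.34) and HSP90AA1 (0.37) were higher and HSPB1 (-0.52) and CCT8 (-0.33) lower. HSPA1A has a near-identical copy.

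The comparisons of the 2 guides with sgEV share both sgEV libraries, so their calls are not independent of each other. The direct comparison of guide 5 with guide 1 called 57 genes (0.409%), 11 higher and 46 lower, and 1201 genes had an unadjusted p under 0.05. Under spike-in scaling 1 gene was called, and without replicate 1 of guide 1 the split turned to 6 higher and 3 lower. Of the 17 named genes called between the guides, spike-in scaling ended the call of all 17, leaving out replicate 1 or replicate 2 of guide 1 that of 16 or 15, and leaving out replicate 1 or replicate 2 of sgEV that of 13 or 14, with every difference keeping its direction. NDRG1, a stress-induced gene, was at 235 and 229 CPM in sgEV and 230 and 224 with guide 1, and at 142 and 145 with guide 5 (guide 5 minus guide 1, -0.66, adjusted p = 5.7e-05, edgeR). ALDOC, an aldolase, read 89.1 and 97.4 CPM with guide 1 and 57.2 and 68.9 with guide 5, against 155 and 157 in sgEV, and BNIP3, a mitophagy receptor, 48.5 and 51.3 against 37.8 and 38.4. These 3 genes are known to respond to low oxygen. NDRG1 kept its call without any 1 library and lost it under spike-in scaling (adjusted p = 0.0891, edgeR), and ALDOC and BNIP3 lost theirs under spike-in scaling and without any 1 library of sgEV or guide 1, BNIP3 also with DESeq2.

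By the size of the difference among protein-coding genes called with at least 50 normalised counts in the higher guide and no overlap, SERF1A (-5.18), C21orf33 (-1.95), FAM69C (-1.31) and NGFR, a neurotrophin receptor (-1.27), were lowest with guide 5 relative to guide 1, and SERF1B (1.03), NCAM1 (0.82), the arginine synthesis enzyme ASS1 (0.33) and ABCB10 (0.32) highest. SERF1A had 23 and 5 counts in sgEV, 69 and 55 with guide 1 and 0 and 3 with guide 5, so that guide 1 lay above sgEV (1.99 ± 0.55) and guide 5 below it at a ratio of 0.102 (0.0199 to 0.33, counting interval). SERF1A and SERF1B are near-identical copies, and reads of these 2 genes cannot be told apart with certainty. ASS1 fell steeply with both, from 581 and 587 CPM to 94.3 and 96.4 with guide 1 and 118 and 122 with guide 5. The number of genes called between guides was 872 without replicate 1 of guide 5, 365 without its replicate 2, 9 without either library of guide 1, and 19 and 18 without sgEV replicate 1 and replicate 2.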

How the data were processed

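RNA-seq was measured in 14 libraries, of which the 6 MV4;11 libraries of sgEV, sgcMyc_1 and sgcMyc_5 were analysed. The authors deposited one table with, per gene and library, estimated counts made with RSEM (an expected count need not be whole) and normalised log2 values. Per the submitters' processing notes the tools were RSEM and DESeq and the build was hg19. Aligner, annotation and settings were not given in the sources used here. RSEM shares reads between similar genes by likelihood, so near-identical copies are uncertain, and nothing states whether counting used strand.

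Estimated counts were rounded to whole numbers. The 56 spike-in rows were left out of the tests, and 18 rows carried symbols that a spreadsheet had turned into dates. Genes passing edgeR's filterByExpr were scaled by TMM and tested with edgeR 4.0.16 (R 4.3.3, robust quasi-likelihood, 3 groups in 1 fit), contrasting the mean of both guides with sgEV, each guide with sgEV, and guide 5 with guide 1. P-values were adjusted by Benjamini-Hochberg over all 13948 genes, the standard error is the fold change divided by the root of the F statistic, and the common biological coefficient of variation was 0.0422. Counting intervals are exact at 95% and, like the floor of 3 counts, cover counting error only. The procedure was tested on simulated counts with 200 changed genes among 13677 and the same dispersion for every gene. It called 28% of changes of 0.25 on the log2 scale, 82% of those of 0.5 and 100% of those of 1 or 2. In the data far more genes were called and the guide 5 libraries differed more than the others. The simulated shares therefore need not hold for the data.

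Named genes are MYC; the 12 largest rises and falls (called, a mean of 50 or more normalised counts where higher, no overlap between guide and sgEV libraries, same sign with each guide, protein-coding); up to 6 called members of each list with the smallest p (not all are printed); and the 4 largest differences each way between guides. Genes named otherwise (CD33, CD4, ITGAM, SPI1, MPO and FLT3 as identity checks, uncalled members, exceptions, promoters with matches, SLC7A5, SLC3A2, XBP1, HERPUD1, EDEM1 and IFI44L) were taken up for their role or after their values were seen. CD68, LYZ and ANPEP were planned as identity checks as well. The libraries and lists were chosen with earlier results of these data known. Alternatives were DESeq2 1.42.0, limma 3.58.1 on the deposited log2 values, DESeq2 size factors, spike-in scaling, other filters, no robust step, a replicate block and leaving out each library. The other 8 libraries were not used here. Some genes that the rule names are not reported here.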

Additional observations from a re-analysis of the deposited data

Results flagged for a closer look

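The direct test between the guides differed for 57 genes (edgeR, guide 5 against guide 1), and 17 of the named genes were among them. The differences below are guide 5 minus guide 1 on the log2 scale. Lower with guide 5 were SERF1A (-5.18), C21orf33 (-1.95), FAM69C (-1.31), NGFR (-1.27), HLA-DRA (-0.72), NDRG1 (-0.66), ALDOC (-0.56), BNIP3 (-0.39), ATF5 (-0.32), MS4A3 (-0.26), TXNIP (-0.26), PIM1 (-0.25) and CD74 (-0.24). Higher were SERF1B (1.03), NCAM1 (0.82), ASS1 (0.33) and ABCB10 (0.32). HLA-DRA and CD74, both of MHC class II, rose with each guide, with the smaller value for guide 5, and NDRG1 was lower than sgEV with guide 5 at -0.70 and stood at -0.03 with guide 1. Replicate 1 of guide 5 stands apart from its partner. Leaving it out leaves 1 library of guide 5, judged by the spread of the other groups. Calls in that fit therefore cannot show whether replicate 1 drives the differences. Without it all 17 differences kept their direction, among them NDRG1 (-0.65), HLA-DRA (-0.56) and ASS1 (0.35). All 17 lost their calls under spike-in scaling, and 16 without replicate 1 of guide 1, where NDRG1 alone kept its call.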

How the results depend on the processing

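For both guides against sgEV, DESeq2 called 3219 genes (1635 higher, 1584 lower) where edgeR called 5203, and leaving out 1 library gave 2935 to 6176, the lowest without sgEV replicate 1 and 3013 without sgEV replicate 2. For guide 1 alone, DESeq2 called 2624 against 4488, and the leave-one-out range was 2477 to 5758; for guide 5 alone the values were 2547 against 4354 and 2360 to 5076. Between the guides, 57 calls became 1 under spike-in scaling and ranged from 9 to 872 with 1 library left out. The cause of these differences was not tested; leaving out a library of a group of 2 leaves its lone sample to be judged by the spread of the others.

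With a replicate block, 5657 genes were called for both guides and 129 between the guides. The libraries share only a number: the deviations of replicate 1 correlated at -0.0448 between sgEV and guide 1, -0.0109 between sgEV and guide 5 and 0.285 between the guides over 10815 genes. Spike-in scaling left 67.3% of calls higher for guide 1 and 78.3% for guide 5.

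Of 258 named genes, 208 kept their call in every one of the 14 alternatives that gave them a value, 50 lost it in at least 1 and none changed sign. A gene that a filter removed was not counted as lost there. Each gene was counted against sgEV or, where the difference between guides alone named it, between the guides. The median of the cytokine list turned from -0.158 to 0.0633 with only genes of at least 50 mean counts. Leave-one-out medians ran from -0.46 to 0.0487 for the B and plasma cell markers and from -0.16 to 0.15 for the erythroid and megakaryocyte markers. Depth limits the genes below about 1 CPM, where 1 library holds few counts.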
